A study of Mus musculus with 58 samples.

Results

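The genes described here are those of NRF2, a transcription factor of the antioxidant response, and of the enzymes that handle quinones and other reactive metabolites: Nfe2l2 (which encodes NRF2), Nqo1, Gclc, Gclm, Hmox1, Txnrd1, Srxn1, Aldh3a1 and Ugdh. All 9 were found on the array through the RefSeq accession of their probes, by 11 of its 55681 different probes, and are 9 of the 20018 genes that the array names. Hmox1 and Aldh3a1 had 2 probes each, of which the brighter was used, and the others had 1. The values are log2 ratios of a sample over a universal mouse reference RNA made from 11 mouse cell lines, so that 0 is the level of the reference. Each probe has its own reference level, and the ratios of different genes were therefore not set against each other.

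Male Muta™Mouse, transgenic animals of about 13 weeks of age that carry the lacZ gene for mutation assays in every group including the controls, received the polycyclic aromatic hydrocarbon indeno(123,cd)pyrene (IP) in olive oil, or olive oil alone (vehicle), by gavage on 28 consecutive days. The low dose was 12.5, the intermediate 25 and the high 50 mg/kg-bw/day, and lung, liver and forestomach were taken 72 hours after the last one. RNA of 1 tissue of 1 mouse went on each of the 58 dual-colour arrays. Lung had 5 arrays in each of the 4 groups, and liver and forestomach had 4 vehicle arrays and 5 at each dose. The labels number the mice from 1 to 20, with 1 to 5 given vehicle, 6 to 10 the low, 11 to 15 the intermediate and 16 to 20 the high dose, and mouse 4 was measured in lung only. The extraction protocol of the labels counts 4 vehicle mice, which leaves unclear why lung has 5, and all 5 were used as labelled. Without the lung of mouse 4 the numbers of members called, given below, were the same (7 in each comparison of vehicle lung with another tissue and 0 at each dose), and the changes of Nqo1 and Gclc in lung at the high dose were 0.42 and −0.30 in place of 0.46 and −0.32 (log2).

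NRF2 is held in the cytoplasm and marked for degradation by KEAP1 until electrophiles or oxidants modify cysteines of KEAP1, after which it enters the nucleus, pairs with small MAF proteins and binds antioxidant response elements (AREs) near its target genes. Quinones formed from polycyclic aromatic hydrocarbons are electrophiles of that kind. Nqo1, Aldh3a1 and the UDP-glucuronosyltransferases are also known targets of the aryl hydrocarbon receptor (AhR), which binds such hydrocarbons directly and acts through xenobiotic response elements (XREs).

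Lung surfactant and airway markers, liver secretory and metabolic markers and squamous epithelium markers were each highest in the tissue of that name on all 58 arrays, with list means of 5.80 to 6.60 in lung, 7.50 to 8.57 in liver and 2.76 to 3.99 in forestomach. The 9 glandular stomach markers, however, were not uniform in forestomach. Their mean was 0.56 to 2.03 on 9 arrays (1 vehicle, 3, 3 and 2 with rising dose) and 5.08 to 6.67 on the other 10 (3 vehicle, 2, 2 and 3), against 0.01 to 0.50 in lung and −0.07 to 0.21 in liver. In lung, the mean of the 4 brown fat markers, of which 2 to 4 were above background, was 1.41 to 3.65 in vehicle mice and 0.87 to 1.89 in dosed mice. That of the 6 fat cell markers, with 4 to 6 above background, was 1.72 to 4.42 and 0.94 to 2.71, and that of the 6 heart muscle markers, with 5 or 6 above background, 1.74 to 4.56 and −0.01 to 3.38. The part of these cell types in the results below was not tested. The share of probes that the scanner software called well above background was 53.0 to 90.7% in lung, 37.6 to 78.9% in liver and 43.0 to 85.9% in forestomach. Vehicle livers were at 37.6 to 41.7%. The highest livers were all of dosed mice: 9 (77.5%), 13 (66.6%), 15 (73.3%), 16 (78.9%) and 20 (75.2%). Vehicle forestomachs were at 43.0 to 52.4%, and the highest were again of dosed mice, 8 (81.2%) and 18 (85.9%). The part of this share in the dose changes of liver and forestomach was not tested. No member probe was saturated, and all were above background on all arrays except Nqo1 on 1 array, that of liver in vehicle mouse 1. Lung and forestomach lay on the same 5 slides and liver on 3 others, so that liver and slide cannot be told apart in any comparison with it. In lung and in forestomach each group always held the same array position within a slide. Dose and position therefore cannot be told apart in these tissues.

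The promoter of Srxn1 is shown because it holds a pair of ARE motifs and because Srxn1 stood out with Hmox1 and Txnrd1 in 1 lung below, and that of Nqo1 because its levels in forestomach were far from those of lung and liver. Both are the 250 bases before the annotated start, 5′ to 3′ on the strand of the gene, from RefSeq on GRCm38.p6, with motif matches in capitals: TGACNNNGC or TGAGNNNGC for AREs and GCGTG for XREs, on either strand.
Srxn1, chr2:152105274-152105523, plus strand: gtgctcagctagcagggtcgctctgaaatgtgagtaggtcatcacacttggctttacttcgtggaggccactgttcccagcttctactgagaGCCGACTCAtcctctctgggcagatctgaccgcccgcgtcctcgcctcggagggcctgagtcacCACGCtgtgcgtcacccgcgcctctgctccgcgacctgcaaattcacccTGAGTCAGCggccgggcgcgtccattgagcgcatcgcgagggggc
Nqo1, chr8:107403206-107403455, minus strand: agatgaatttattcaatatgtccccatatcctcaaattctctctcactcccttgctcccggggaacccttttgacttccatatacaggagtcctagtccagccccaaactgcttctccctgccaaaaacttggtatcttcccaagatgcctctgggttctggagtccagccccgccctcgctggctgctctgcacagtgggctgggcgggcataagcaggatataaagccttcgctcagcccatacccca
In the Srxn1 window, TGAGTCAGC lies 45 to 37 bases before the start, GCCGACTCA, an ARE on the other strand, 158 to 150 bases before it, and a single XRE match between them. The Nqo1 window holds no match to these motifs, and bases further from the start were not searched, so elements there are not excluded. Of the 9 members, 6 had promoter entries (8 in all, since Txnrd1 has 3). Nfe2l2 had 1 ARE match, Gclm 1 with 3 XRE matches, and Ugdh 2 with 3 XRE matches, of which an ARE and an XRE overlap. Each of the 3 Txnrd1 entries had 1 XRE match, and 1 of them also had an ARE match. For comparison, 23.0% of the 32851 promoters of the table hold either ARE form in a window of this length and 28.2% the XRE.

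**Figure D1:**
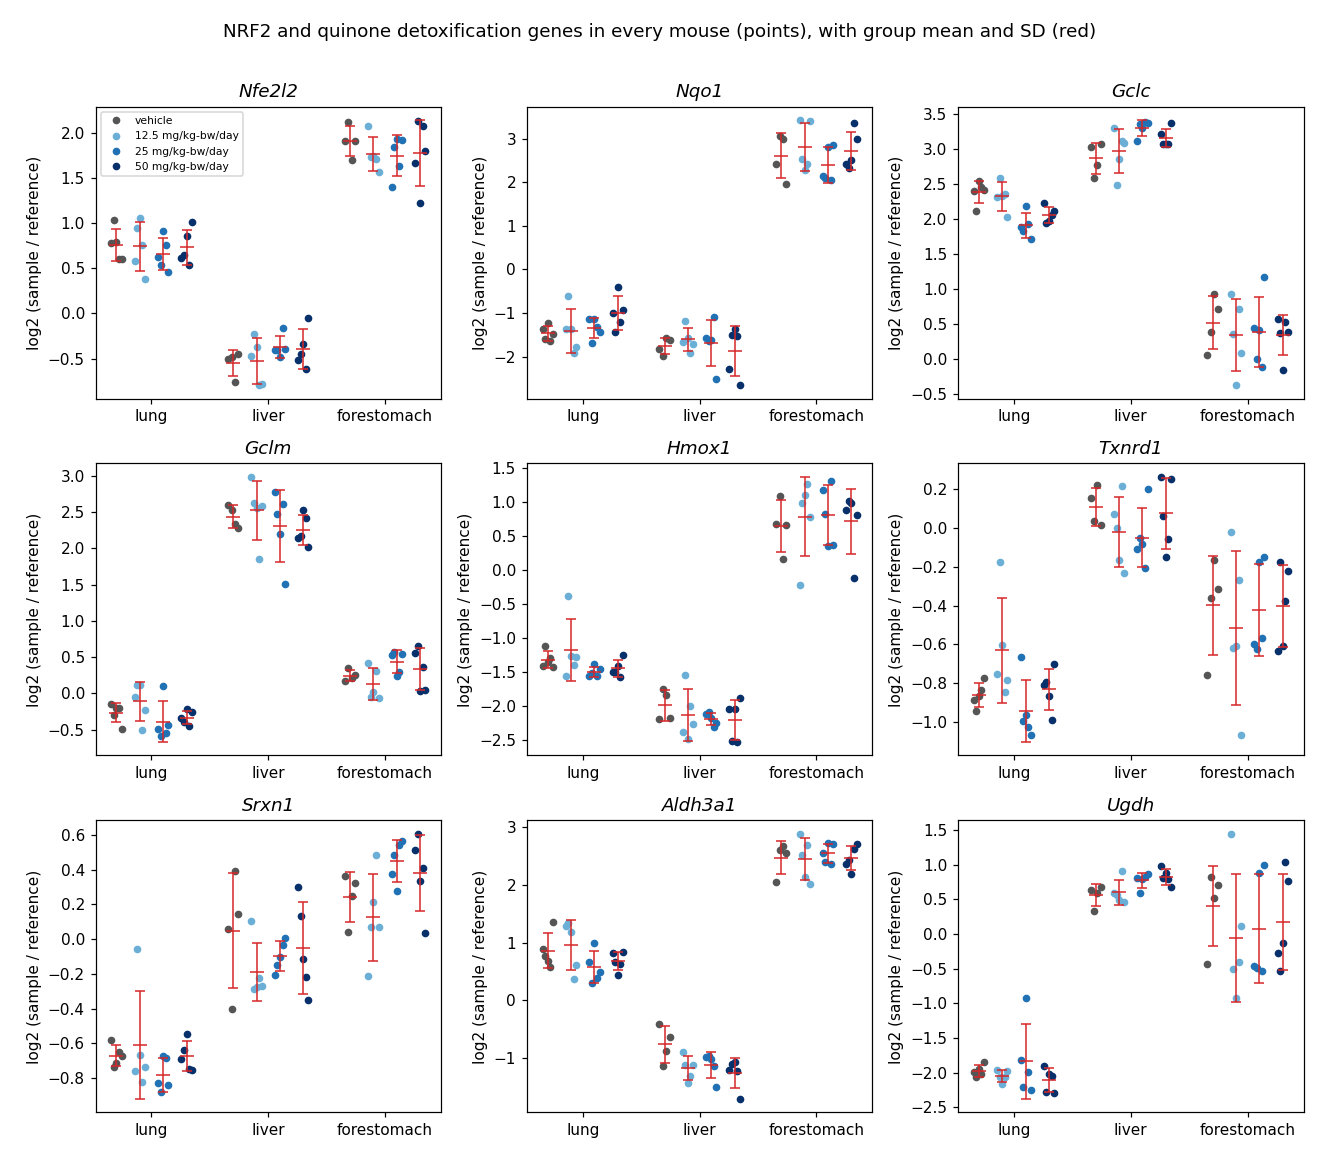
Log2 ratio over the reference RNA (vertical axis) of the 9 members, 1 panel each, in every mouse, by tissue and dose of IP in mg/kg-bw/day (horizontal axis), with group means as bars. Nqo1 lies between 1.96 and 3.43 in all forestomachs and at or below −0.40 in all lungs and livers, and for each gene the largest step from vehicle to a dose is smaller than its largest difference between vehicle tissues.

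The members were set at different levels in the vehicle-treated tissues. A call, here and below, needed a false discovery rate (FDR) adjusted P no higher than 0.05 with a change of 1.5-fold or more in either direction. By it 7 of 9 members differed between lung and liver (background 26.8% of all probes), 3 of them higher in lung (15.7%) and 4 lower (11.1%). Between forestomach and lung 7 of 9 differed (19.5%), 6 higher in forestomach (8.9%) and 1 lower (10.6%). Between forestomach and liver 6 of 9 differed (22.7%), 4 higher in forestomach (12.8%) and 2 lower (9.89%). Fewer cells of a type and less RNA per cell cannot be told apart in bulk RNA such as this.

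Nfe2l2 itself was ordered forestomach over lung over liver. Its log2 ratios in vehicle mice were 1.90, 2.12, 1.70 and 1.91 in forestomach, 0.78, 1.03, 0.79, 0.60 and 0.60 in lung, and −0.51, −0.48, −0.76 and −0.45 in liver. No forestomach overlapped a lung and no lung a liver. The difference was 1.15 ± 0.15 (log2, SE) between forestomach and lung (2.22-fold, limma adjusted P = 4.24e-09) and 1.31 ± 0.15 between lung and liver (2.48-fold, adjusted P = 5.18e-11).

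Nqo1, the flavoenzyme that reduces quinones to hydroquinones in a single step without forming a semiquinone, had the largest difference by the probes used, though the second Aldh3a1 probe exceeded it between forestomach and liver (below). Vehicle forestomachs had log2 ratios of 2.42, 3.06, 2.99 and 1.96, lungs −1.35, −1.60, −1.22, −1.65 and −1.48, and livers −1.82, −1.98, −1.58 and −1.62. Every forestomach was thus far above every lung and liver, and lungs and livers overlapped. The difference was 4.07 ± 0.27 from lung (16.8-fold, limma adjusted P = 3.90e-18) and 4.36 ± 0.29 from liver (20.6-fold, adjusted P = 9.37e-19). Lung and liver differed by 0.29, with a 95% interval of −0.26 to 0.84 and an adjusted P of 0.459.

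Aldh3a1, an aldehyde dehydrogenase abundant in cornea and stomach, had the same tissue order as Nfe2l2. It read 2.05, 2.60, 2.69 and 2.55 in vehicle forestomachs, 0.89, 0.77, 0.67, 0.58 and 1.36 in lungs and −0.42, −1.14, −0.89 and −0.64 in livers. The groups did not overlap, and forestomach exceeded liver by 3.24 ± 0.19 (9.48-fold, limma adjusted P = 1.15e-20). Its second probe gave 4.72 (26.4-fold) for the same difference, so the direction was shared and the size was not.

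Hmox1, which opens heme to biliverdin with release of iron and carbon monoxide, was likewise highest in forestomach, at 0.68, 1.09, 0.17 and 0.66. Lungs were at −1.41, −1.12, −1.36, −1.30 and −1.43 and livers at −2.20, −1.76, −1.83 and −2.18. Forestomach exceeded lung 3.92-fold (limma adjusted P = 3.06e-10) and liver 6.24-fold (adjusted P = 1.08e-13). Lung exceeded liver 1.59-fold by this probe (adjusted P = 0.0148), but by the second probe the log2 difference was 0.20 (adjusted P = 0.514), and the call was lost without mouse 1 (0.62) or mouse 5 (0.63). The vehicle means of forestomach, lung and liver were 0.65, −1.32 and −1.99 by the probe used and −0.21, −1.20 and −1.40 by the second. Forestomach was thus highest by both probes, but by less with the second.

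The subunits of glutamate-cysteine ligase, the rate-limiting enzyme of glutathione synthesis, followed other orders. Gclc, the catalytic subunit, read 3.03, 2.59, 2.77 and 3.07 in vehicle livers, 2.40, 2.12, 2.54, 2.46 and 2.42 in lungs and 0.07, 0.39, 0.93 and 0.71 in forestomachs. Gclm, the modifier subunit, read 2.60, 2.53, 2.33 and 2.27 in livers, −0.15, −0.30, −0.20, −0.20 and −0.48 in lungs and 0.17, 0.35, 0.22 and 0.25 in forestomachs. Lung was therefore near liver for the catalytic subunit (lower by 1.39-fold, under the fold limit, limma adjusted P = 0.0411) and far below it for the modifier (lower by 6.5-fold, adjusted P = 3.57e-19). Forestomach was below liver for both, 5.06-fold for Gclc (adjusted P = 1.74e-14) and 4.56-fold for Gclm (adjusted P = 8.58e-15). Between forestomach and lung, Gclc was 3.63-fold lower (adjusted P = 9.76e-12) and Gclm 1.42-fold higher, under the fold limit (adjusted P = 0.0201).

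Ugdh makes UDP-glucuronic acid, the donor for glucuronidation. Vehicle lungs lay within a narrow range, at −2.0, −2.07, −1.95, −2.01 and −1.85, below the livers at 0.63, 0.33, 0.60 and 0.68. The 5.78-fold difference had a limma adjusted P of 6.31e-10. Forestomachs were spread over −0.44, 0.82, 0.52 and 0.70, 5.19-fold above lung (adjusted P = 6.91e-09) and not distinguishable from liver (log2 difference −0.16, 95% interval −0.81 to 0.49, adjusted P = 0.799).

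Txnrd1, thioredoxin reductase, and Srxn1, sulfiredoxin, which restores overoxidized peroxiredoxins, varied least between tissues. Txnrd1 was −0.95 to −0.77 in the 5 vehicle lungs, 0.01 to 0.22 in the livers and −0.76 to −0.16 in the forestomachs. Lung was 1.96-fold below liver in Txnrd1 (limma adjusted P = 6.72e-08). Srxn1 was −0.73 to −0.58 in lungs, −0.40 to 0.39 in livers and 0.04 to 0.36 in forestomachs. It was 1.65-fold lower in lung than in liver (adjusted P = 7.41e-06) and 1.88-fold higher in forestomach than in lung (adjusted P = 9.15e-08). Forestomach and liver differed in Srxn1 by 0.20 (adjusted P = 0.337), and Txnrd1 was lower in forestomach than in liver by 1.42-fold and higher than in lung by 1.38-fold, both under the fold limit.

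These directions rest on loess normalization within arrays. Centring each array on its median instead moved the median of all named genes between vehicle lung and liver from 0.02 to 0.46 on the log2 scale, and turned 5 of the smaller differences: Gclc and Srxn1 between lung and liver, Gclm and Txnrd1 between forestomach and lung, and Ugdh between forestomach and liver. It also ended the calls of Nfe2l2 (0.56) and Srxn1 (0.32) between forestomach and lung and of Txnrd1 between lung and liver (−0.14), and added one of Nqo1 between lung and liver (1.33). The order of Nqo1, Nfe2l2, Aldh3a1 and Hmox1, and the low Gclm and Ugdh of lung against liver, kept their direction there.

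The glandular stomach signal moved with some members in forestomach. Ugdh was −0.93 to −0.27 on the 9 arrays with little of it and −0.13 to 1.45 on the 10 with much, without overlap, and the means differed by 1.22. Nqo1 was higher on the latter by 0.64 and Hmox1 lower by 0.54, with overlap. For the other 6 members the difference of the means was −0.20 to 0.31. In both sets Nqo1 remained above all lungs (−1.91 to −0.40) and livers (−2.65 to −1.08) of the study, at 2.04 to 2.53 and 1.96 to 3.43. With the 10 arrays left out, a choice made after seeing the data that leaves 1 vehicle forestomach, taken to vary like the other groups, Ugdh was lower in forestomach than in liver by 1.00 (limma adjusted P = 0.00151) where it had not been called, and 8 of 9 members were then called between these tissues (background 21.7%).

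**Figure D2:**
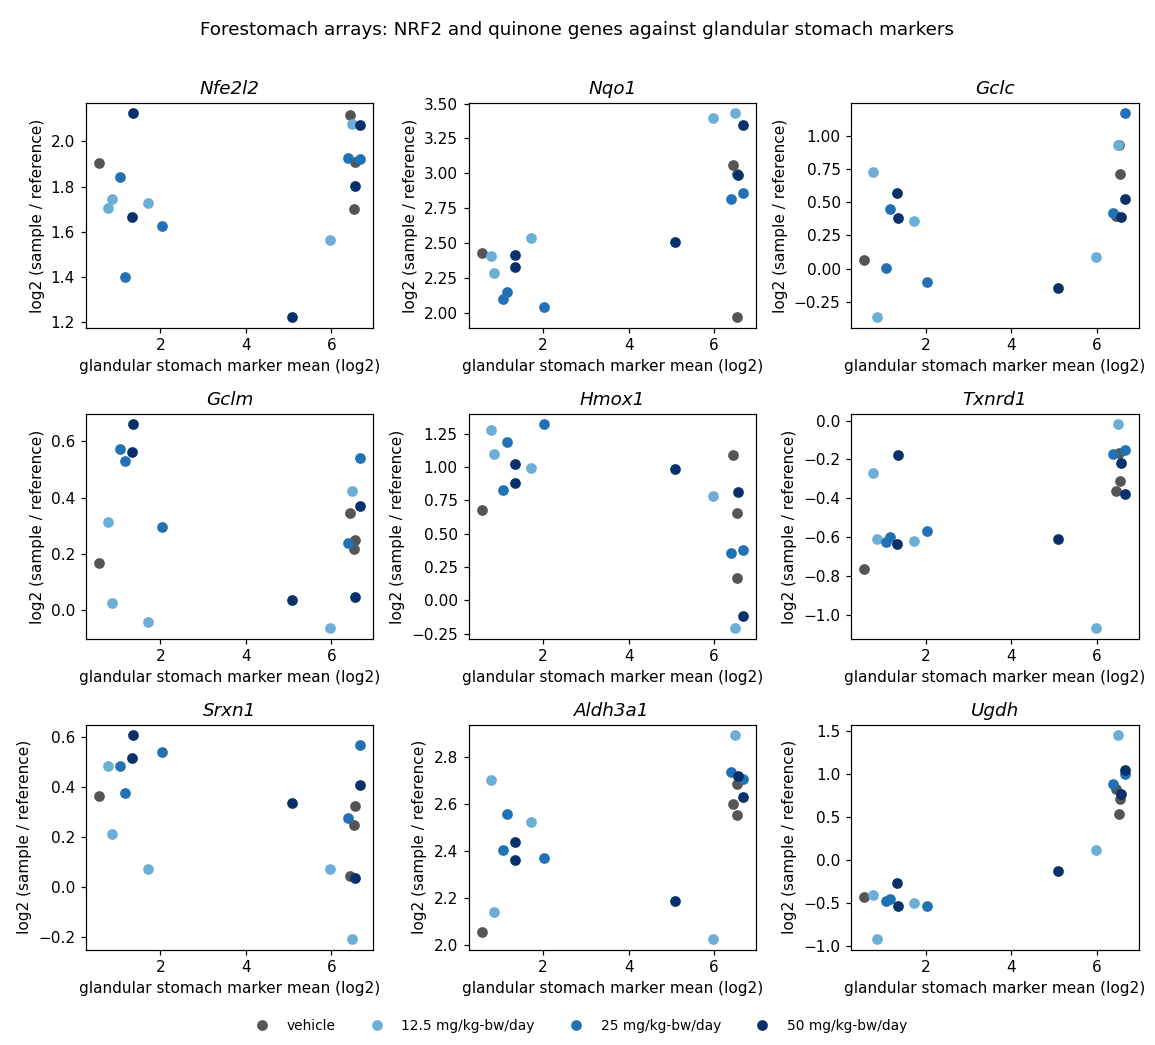
Log2 ratio of Ugdh, Nqo1 and Hmox1 (vertical axes, 1 panel each) against the mean log2 ratio of 9 glandular stomach markers (horizontal axis) on the 19 forestomach arrays, coloured by dose. The 9 arrays below 2.03 and the 10 above 5.08 are separate sets, between which Ugdh does not overlap while Nqo1 and Hmox1 do.

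Against these differences between tissues, no member changed with IP by the call used. In lung 0 of 9 members were called at 12.5 (background 0% of probes), 25 (0.0126%) or 50 mg/kg-bw/day (0.079%), nor by a trend over dose, judged by adjusted P alone (0.14%). In liver 0 of 9 were called at any dose or by trend, where 0% of probes were called in all 4 tests, and the same numbers, 0 of 9 and 0%, held in forestomach. Members with an unadjusted limma P under 0.05 numbered 1, 1 and 2 of 9 with rising dose for lung (3.92, 6.54 and 8.81% of all probes), 1, 3 and 3 for liver (2.58, 4.42 and 6.84%), and 0 at every dose for forestomach (4.12, 3.59 and 3.89%). At the high dose the median log2 change of the 9 members was −0.07 in lung, −0.10 in liver and 0.00 in forestomach, beside 0.00, −0.01 and 0.00 over all probes. Of 81 exact two-sided permutation tests of single members over mice, 11 gave a P under 0.05, the lowest 0.00794 (the smallest that 5 against 4 or 5 mice can give) and the lowest Benjamini-Hochberg value over the 81 tests 0.286.

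**Figure D3:**
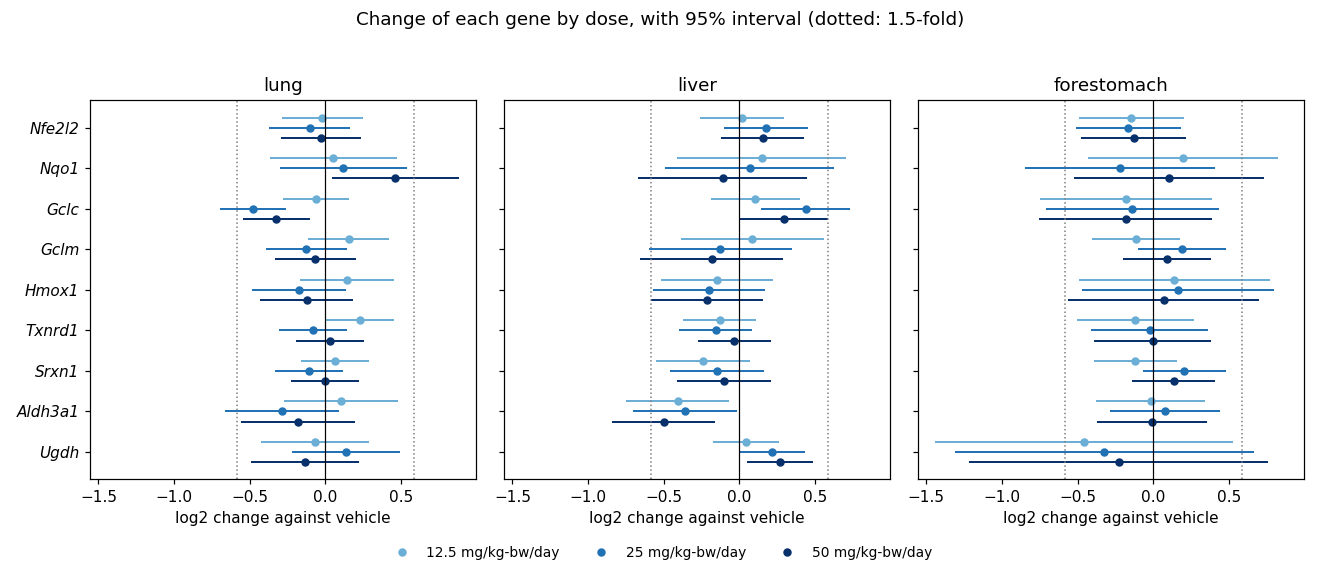
Log2 change against vehicle with 95% confidence interval (horizontal axis) of each member at the low, intermediate and high dose, 1 panel per tissue. All changes lie between −0.50 and 0.46, none was called, and the widest interval is that of Ugdh in forestomach.

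Gclc was the member with the smallest P, and its values lay on opposite sides of vehicle in lung and liver. In lung it read 2.32, 2.59, 2.33, 2.36 and 2.02 at 12.5, then 1.89, 1.84, 2.18, 1.93 and 1.71 at 25 and 2.23, 1.94, 1.98, 2.05 and 2.12 at 50 mg/kg-bw/day, against the vehicle range of 2.12 to 2.54. At the intermediate dose 4 of 5 mice were below every vehicle mouse, and at both upper doses all 5 were below the vehicle mean. The log2 change was −0.48 ± 0.10 (SE) at 25 (1.39-fold, limma P = 0.000135, adjusted P = 0.114, exact permutation P = 0.0159) and −0.32 ± 0.10 at 50 (1.25-fold, adjusted P = 0.244, exact permutation P = 0.0238). Within each of the 5 slides, which hold 1 lung array of each dose, the treated lung was lower than the vehicle lung at both doses, by −0.75 to −0.28 and by −0.56 to −0.18. With slide as a block the limma adjusted P was 0.0394 at 25, where the change stayed under the fold limit, and 0.101 at 50. Neither comparison can tell dose from array position, since each dose held the same position on every lung slide. Centring arrays on their median in place of loess gave −0.19 and −0.04 at these doses, where it moved the median of all named genes to 0.13 at each. The fat cell, brown fat and heart muscle marker means given above were also lower in dosed than in vehicle lungs, with overlap.

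In liver, Gclc read 3.30, 2.49, 2.86, 3.12 and 3.09 at 12.5, 3.11, 3.36, 3.30, 3.38 and 3.37 at 25 and 3.21, 3.07, 3.07, 3.08 and 3.37 at 50 mg/kg-bw/day, against 2.59 to 3.07 in vehicle mice. The intermediate dose did not overlap the vehicle group, and the others did. The change was 0.44 ± 0.14 at 25 (1.36-fold, limma P = 0.00493, adjusted P = 0.906, exact permutation P = 0.00794) and 0.29 ± 0.14 at 50 (1.23-fold, adjusted P = 0.725), and the means within the 3 liver slides were higher than vehicle in all 3 at both doses. Median-centring gave 0.75 and 0.87 there, with the median of all named genes at 0.17 and 0.31. The difference of the effects, lung minus liver, was −0.62 ± 0.26 at 50 (limma adjusted P = 0.650). At 25, a test added after seeing the data, it was −0.92 ± 0.26 (limma adjusted P = 0.980). Neither passed the adjustment over all probes. At 50 mg/kg-bw/day 0 of 9 members differed in effect between lung and liver (0.0162% of probes), lung and forestomach (0.0144%) or forestomach and liver (0.00359%).

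Nqo1 was above the vehicle mean in all 5 lungs of the high dose. Its log2 ratios there were −1.0, −1.43, −0.40, −1.21 and −0.94, after −1.14, −1.69, −1.15, −1.31 and −1.42 at 25 and −1.37, −0.61, −1.38, −1.91 and −1.77 at 12.5 mg/kg-bw/day, against −1.65 to −1.22 in vehicle mice. The high dose overlapped the vehicle group through 1 mouse, and the low dose surrounded it on both sides. The change at 50 was 0.46 ± 0.20 (95% interval 0.05 to 0.88, 1.38-fold, limma P = 0.0302, adjusted P = 0.492, exact permutation P = 0.0317). Within slides it was higher in 5 of 5, by 0.17 to 0.82, where dose and array position again cannot be told apart. In liver and forestomach the change at that dose was −0.11 (0.60 with median-centring) and 0.11 (0.52 with median-centring), with intervals of −0.66 to 0.44 and −0.52 to 0.73. Median-centring gave 0.67 in lung. It put the median of all named genes at 0.13 in lung, 0.31 in liver and 0.23 in forestomach.

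The other values with an unadjusted limma P under 0.05 were Txnrd1 in lung at 12.5 mg/kg-bw/day, given below with mouse 7, and Ugdh and Aldh3a1 in liver. Ugdh read 0.98, 0.81, 0.88, 0.79 and 0.67 at 50 mg/kg-bw/day against 0.33 to 0.68 in vehicle mice, a change of 0.27 ± 0.10 with all mice above the vehicle mean (adjusted P = 0.720). Aldh3a1 read −1.22, −1.11, −1.08, −1.23 and −1.72 against −1.14 to −0.42, a change of −0.50 ± 0.16 with all mice below the vehicle mean (adjusted P = 0.678), which median-centring turned to 0.09. At 25 mg/kg-bw/day Ugdh changed by 0.22 ± 0.10 and Aldh3a1 by −0.36 ± 0.16 (adjusted P = 0.906 each), and at 12.5 Aldh3a1 by −0.41 ± 0.16 (adjusted P = 1.00). The second Aldh3a1 probe changed by −0.06 ± 0.12 at that dose, so that the probes differed. In forestomach no member had an unadjusted P under 0.05 at any dose, and the 95% interval of the change at 50 reached from −1.21 to 0.75 for Ugdh and from −0.13 to 0.40 for Srxn1.

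A single lung of the low dose stood apart for several members. In mouse 7, Hmox1 was −0.39 against −1.56 to −1.27 in the other 4 mice of its group, and its second probe was also highest there, at −0.79. Srxn1 was −0.06 against −0.82 to −0.67, Txnrd1 −0.17 against −0.85 to −0.60, and Nqo1 −0.61 against −1.91 to −1.37. This mouse was the highest of its group for 6 of 9 members and for 26 of 54 other NRF2 pathway genes (48.1%), while it was highest for 17.6% of all named genes. Among those 26 were Slc7a11, the cystine carrier for glutathione synthesis, at 0.83 against −0.59 to −0.01, and Gpx2, a glutathione peroxidase, at 5.39 against 3.95 to 4.95. Its liver was highest for 3 members and its forestomach for 0. By the count of members mouse 7 was not single in the study. Lung mouse 13 and forestomach mouse 6 were each highest of their group for 7 members, with 30.4 and 27.9% of all named genes. Forestomach mouse 6 was, unlike mouse 7, the lowest of its group for Hmox1 and Srxn1 (−0.21 each). Without mouse 7 the Txnrd1 change in lung at 12.5 mg/kg-bw/day, 0.23 ± 0.10 with it, was 0.12 ± 0.08, and the limma adjusted P was 1.00 in both fits.

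The wider NRF2 pathway had no calls with dose either. Of 54 further genes in 7 lists, 8 regulators such as Keap1 and Bach1, 12 genes of glutathione synthesis and conjugation, 6 of NADPH supply, 3 thioredoxin and peroxiredoxin genes, 11 quinone, carbonyl and epoxide enzymes, 5 of heme and iron, and 9 transporters and others, 0 were called at any dose in any tissue. At the high dose the numbers with an unadjusted limma P under 0.05 were 4 higher and 8 lower in lung (median log2 change −0.01), 2 higher and 2 lower in liver (0.02), and 6 higher and 0 lower in forestomach (0.05), where 8.81, 6.84 and 3.89% of all probes had such a P in either direction. The largest changes in liver were Osgin1, an oxidative stress response gene (0.65 ± 0.31, adjusted P = 0.725), Abcc3, an exporter of glucuronides (0.55 ± 0.11, adjusted P = 0.284), Gsta2 (−0.79 ± 0.57, adjusted P = 0.770) and Gstm3 (−0.61 ± 0.23, adjusted P = 0.718), the last pair glutathione transferases. In lung they were Ephx1, microsomal epoxide hydrolase (0.41 ± 0.09, adjusted P = 0.0769), Ptgr1, prostaglandin reductase (0.37 ± 0.17, adjusted P = 0.544), Gsta2 (−0.60 ± 0.39, adjusted P = 0.752) and Fech, ferrochelatase (−0.40 ± 0.17, adjusted P = 0.466). In forestomach they were Gstm1 (0.66 ± 0.31, adjusted P = 1.00), Aox1, an aldehyde oxidase (0.61 ± 0.28, adjusted P = 1.00), Gsta2 (−0.61 ± 0.59) and Gsta1 (−0.46 ± 0.71). Between vehicle tissues, in contrast, 14 of the 54 were called higher and 25 lower in lung than in liver (15.7 and 11.1% of all probes), 25 higher and 15 lower in forestomach than in lung (8.9 and 10.6%), and 19 higher and 22 lower in forestomach than in liver (12.8 and 9.89%).

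Of the 7 genes of the AhR battery, 2 were called in lung at 50 mg/kg-bw/day (0.079% of all probes), both higher. Cyp1b1, a hydrocarbon-oxidizing cytochrome P450, rose by 3.64 ± 0.45 (12.5-fold, limma adjusted P = 0.00145). Ahrr, the AhR repressor, rose by 2.50 ± 0.28 (5.65-fold, adjusted P = 0.000363). By the trend over dose in lung 3 of the 7 were called, all rising (0.14% of probes). The effect at 50 was called larger in lung than in liver for 2 (0.0162%) and than in forestomach for 2 (0.0144%). Cyp1a1 was 18.9-fold higher with an adjusted P of 0.0837. In liver and forestomach 0 of the 7 were called, and Cyp1a1 in forestomach changed by 1.03 ± 0.36 (adjusted P = 1.00). The other 4 genes of the list, Cyp1a2, Tiparp, Ahr and Arnt, changed by −0.04 to 0.07 in lung at that dose, so that the 0.46 of Nqo1 lay between them and the 3 large changes, and the median of the list was 0.07.

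Across the mice of a tissue some members varied together. Over the 20 lungs of all doses the Pearson correlation was 0.80 between Hmox1 and Srxn1, 0.75 between Hmox1 and Txnrd1 and 0.71 between Txnrd1 and Srxn1. In the same order these pairs had −0.17, 0.34 and 0.41 in liver and 0.30, −0.45 and −0.06 in forestomach. Over the 19 forestomachs the correlation was 0.87 between Txnrd1 and Aldh3a1, 0.71 between Nqo1 and Ugdh and −0.77 between Hmox1 and Ugdh. The latter pairs had 0.62, 0.12 and −0.08 in lung and −0.11, −0.10 and −0.23 in liver. In liver the correlation between Nqo1 and Txnrd1 was −0.69, against 0.40 in lung and 0.21 in forestomach. The members of a pair share arrays, slides and, in forestomach, the glandular stomach signal described above, and in lung the values of mouse 7, so that these are descriptions of the sets of arrays. Among 19908 genes compared over the 58 arrays after subtracting tissue means, those most like Ugdh were Slc39a11 and Sytl4 (r = 0.89 each) and the closest to Nqo1 given here was Cmtm4 (0.71). These pooled values differed by tissue. For Ugdh with Slc39a11 the r was 0.97 in forestomach, 0.39 in lung and 0.68 in liver. With Sytl4 it was 0.97, 0.62 and 0.28 in the same order. For the others the closest were Fhl2 (0.71) and Timmdc1 (0.65) for Aldh3a1, Rhobtb1 (0.72) and Dalrd3 (0.70) for Gclm, Mogs (0.71) and Actg1 (0.70) for Txnrd1, and Hspb8 (0.65) and Ndel1 (0.64) for Hmox1. Gclc was nearest to Ndrg1 (0.64) and Bcar1 (0.61), Nfe2l2 to Togaram1 (0.62) and Pawr (0.58), and Srxn1 to Rpa1 (0.61) and Ptpn13 (0.59). In lung alone the r of Gclc was −0.05 with Ndrg1 and 0.16 with Bcar1, and in liver alone that of Nfe2l2 with Togaram1 was 0.14.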

How the data were processed

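Forestomach, liver and lung RNA of male Muta™Mouse was measured on 58 dual-colour Agilent arrays, with the sample in Cy5 and the reference in Cy3. The intensity values are median spot signals that the authors made with Agilent Feature Extraction 10.7.3.1 (lung, forestomach) and 11.0.1.1 (liver), before background correction. The log10 ratios in the same files were background-subtracted and dye-normalized by that software per the file headers. A value table deposited by the authors holds LOWESS-normalized log2 ratios. Their Pearson r with the scanner ratios was 0.996 to 0.999 in lung, 0.997 to 0.999 in forestomach and −0.01 to 0.01 in liver, so the liver values were not used.

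Log2(Cy5/Cy3) of median signals, without background subtraction, was loess-normalized array by array, and replicate spots of a probe were averaged once outlier spots had been removed. The software was limma 3.58.1 with statmod 1.5.0 under R 4.3.3, with the data.table package (version 1.17.8) for reading. Each tissue was fitted over all 55681 probes in 1 limma model of 4 groups, and differences between tissues in a joint model of all arrays, with Benjamini-Hochberg adjustment within each comparison. A call needs an adjusted P no higher than 0.05 with a change of 1.5-fold or more, and for trends and differences of effects the adjusted P alone. Single values were also tested by exact permutation of mice. The fits were tested on simulated data.

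The members and lists (7 NRF2 pathway lists, AhR battery, tissue and cell type markers) were chosen with earlier results of these data known. The text names the members, list genes called at a dose, the list genes with the 2 largest rises and falls per tissue at the high dose (in the text within the NRF2 lists, so that Ephx1, Ptgr1 and Aox1 were added beside AhR genes), and for each member the 2 genes whose values correlate best with it, of which 1 is not reported here. Some genes of mouse 7 were named after their values were seen. A gene's brightest probe was used. Replicates are separate mice. The number of arrays limits the precision. Promoters came from RefSeq on GRCm38.p6. That a number names the same mouse in each tissue was checked on the residuals: arrays sharing a number had a median r of 0.06 (liver with lung), 0.14 (forestomach with lung, on shared slides) and 0.02 (forestomach with liver), and other arrays of equal dose −0.02, −0.04 and −0.02. The alternatives were normexp (offset 50), median-centring, Aquantile, outlier spots kept, bright probes, the scanner's log ratio, Cy5 alone, the authors' values, the mean over probes, slide and mouse as blocks, the vehicle and 1 dose alone, no fold limit, limma with trend and robust, and each mouse left out. Chosen after seeing the data were the glandular marker mean as a covariate, arrays with a mean above 3 left out, and effect differences at the lower doses.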

Additional observations from a re-analysis of the deposited data

Results flagged for a closer look

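In 10 of 108 combinations of member, tissue and dose (9.26%), the highest or lowest mouse was far from the others, with a gap of more than 0.71 of the range of a group of 5. Chance gives about 1 such group in 20. The lung of mouse 7 at 12.5 mg/kg-bw/day gave 2 of them, Hmox1 at −0.39 against −1.56 to −1.27 and Srxn1 at −0.059 against −0.82 to −0.67. The other lungs were those of mouse 13 at 25 mg/kg-bw/day, with Gclm at 0.10 against −0.59 to −0.43, and of mouse 11, with Txnrd1 at −0.66 against −1.07 to −0.96. In liver, Aldh3a1 was lowest in mouse 20 at 50 mg/kg-bw/day, −1.72 against −1.23 to −1.08. Nfe2l2 was highest in mouse 14 at 25 mg/kg-bw/day, −0.17 against −0.48 to −0.39, and Ugdh lowest in mouse 12 of the same dose, 0.59 against 0.79 to 0.86. Srxn1 was highest in mouse 6 at 12.5 mg/kg-bw/day, 0.11 against −0.29 to −0.22. In forestomach at 50 mg/kg-bw/day, Gclc was lowest in mouse 18, −0.15 against 0.38 to 0.57, and Hmox1 in mouse 19, −0.12 against 0.81 to 1.03.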

How the results depend on the processing

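The counts of members called kept within 1.5 times of those reported in all 223 values under other settings and all 352 with a mouse left out. The replicate block (mouse as a random block, consensus correlation 0.0459, or as a fixed block in the vehicle arrays) gave 7, 7 and 6 members between the vehicle tissues, as without it, and changed no call of a member. Median-centring moved the median of all named genes at 50 mg/kg-bw/day to 0.13 in lung, 0.31 in liver and 0.23 in forestomach, and between vehicle tissues to 0.46 (lung minus liver), −0.20 (forestomach minus lung) and 0.18 (forestomach minus liver). Of 333 alternative dose changes of single members at 50 mg/kg-bw/day, 36 turned sign and none passed the thresholds, and the lowest adjusted P by limma was 0.101. The cause of a turned sign was not tested. With median-centring the changes that turned were in lung Nfe2l2 0.25, Gclm 0.079, Hmox1 0.16, Srxn1 0.26, Aldh3a1 0.10 and Ugdh 0.14, in liver Nqo1 0.60, Gclm 0.44, Hmox1 0.35, Txnrd1 0.54, Srxn1 0.48 and Aldh3a1 0.094, and in forestomach Nfe2l2 0.28, Gclc 0.23, Txnrd1 0.41, Aldh3a1 0.42 and Ugdh 0.19. The vehicle differences that turned were Gclc 0.42 and Srxn1 0.20 (lung minus liver), Gclm −0.069 and Txnrd1 −0.085 (forestomach minus lung) and Ugdh 0.10 (forestomach minus liver). With the scanner's log ratio Nfe2l2 in lung was 0.013 and Nqo1 in liver 0.33. With normexp Srxn1 in lung was 0.00055, and in forestomach Txnrd1 0.0062 and Aldh3a1 0.0054. With Cy5 alone Srxn1 in lung was 0.012 and Nqo1 in forestomach −0.18, and with the authors' values Srxn1 in lung was 0.0019 and Aldh3a1 in forestomach 0.0032. In forestomach the slide block gave Txnrd1 0.00028 and Aldh3a1 0.027, the glandular covariate Hmox1 −0.022, Txnrd1 0.031 and Aldh3a1 0.031, and leaving out the glandular arrays Nqo1 −0.053, Gclc 0.41, Txnrd1 0.35, Aldh3a1 0.34 and Ugdh 0.036. Leaving out each mouse in turn gave ranges that crossed 0 in lung for Nfe2l2 (−0.10 to 0.040), Txnrd1 (−0.0030 to 0.070) and Srxn1 (−0.035 to 0.019), in liver for Nqo1 (−0.24 to 0.088), Txnrd1 (−0.080 to 0.023) and Srxn1 (−0.25 to 0.017), and in forestomach for Nfe2l2 (−0.22 to 0.0089), Nqo1 (−0.11 to 0.26), Hmox1 (−0.093 to 0.28), Txnrd1 (−0.12 to 0.075) and Aldh3a1 (−0.15 to 0.063), and for Ugdh between vehicle forestomach and liver (−0.37 to 0.15). Hmox1 between lung and liver lost its call with the mean over its probes (0.43, adjusted P = 0.0914). Signal over background limits liver most, where as few as 37.6% of probes were above it.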
